A study of Mus musculus with 90 samples.

Results

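Alternatively activated macrophages were followed here through 9 transcripts, Arg1, Mrc1, Cd163, Chil3, Mgl2, Retnla, Stab1, Il10 and Folr2, which are 9 of the 18194 genes measured in 90 mouse melanoma tumours. The members were taken by name, and each was read from the probe set that carries its symbol alone and has the highest mean over all arrays. Every member had exactly 1 such probe set. Alternative activation is the state that macrophages enter in response to interleukin 4 and interleukin 13, which act through the transcription factor STAT6, and in part to interleukin 10. Macrophages of this kind are known for taking up dead cells and matrix fragments, for tissue repair and for restraining T cells, and in tumours they have mostly been studied as cells that favour growth. Arg1, Chil3 and Retnla are the classical markers of the state in the mouse, while the scavenger and lectin receptors among the members also mark macrophages that reside in healthy tissue.

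All tumours grew under the skin, carried the genotype label Hgftg;Cdk4R24C/R24C (a hepatocyte growth factor transgene and a mutant cyclin-dependent kinase) and came from strain B6.cBrd. The sources used here give neither age nor the promoter of the transgene. Antibody to PD-L1, a ligand that restrains T cells, was given at 10 mg/kg. Among the treated tumours, relapse means that a tumour had shrunk below a measurable size and then grew again (3 tumours in study 2 and 3 in study 3). Stabilization means a tumour of the responder class whose volume then did not change between consecutive measurements (3 tumours, study 3 only). Growth delay means that a tumour appeared only after treatment (2 tumours, study 2 only). A responder had shrunk by 5% or more (17 tumours in study 2 and 10 in study 3), and a non-responder had kept growing (14 in study 2 and 9 in study 3). The antibody controls received IgG at 10 mg/kg (14 tumours in study 2 and 8 in study 3), and the vehicle controls received PBS at 10 ml/kg (3 in study 2 and 4 in study 3). Responders were harvested after different numbers of doses and non-responders at matching times. The labels do not say whether each tumour came from its own animal, so p-values measure the spread between these samples.

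Levels are log2 values from an array, on which 1 unit is a doubling. A brighter probe set does not mean a more abundant transcript, so levels are compared between tumours. The shares of genes that follow rank the brightness of probe sets and not abundance. The mean over all tumours was in the upper part of all genes for Arg1 (9.35, above 81.0% of genes), Mrc1 (8.87, 74.8%), Folr2 (8.80, 73.9%) and Stab1 (8.20, 65.2%). Retnla averaged 7.67 and Chil3 6.81. Cd163 (5.56), Mgl2 (5.61) and Il10 (4.84) lay among the 4 dimmest deciles of all genes, where an array resolves small changes least. Melanocyte genes checked the labelled tissue: their mean was under 9 in 5 of the 90 tumours, namely replicate 14 of the study 2 non-responders, replicates 3 and 4 of the study 3 responders and replicates 1 and 2 of the stabilization group. Those 5 tumours had macrophage gene means between 11.55 and 12.42, and the calls of each comparison that includes them were repeated without them.

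Regulatory sequence is shown for 4 members, because 2 of them, Retnla and Mgl2, differed most between the studies, Mrc1 correlated most closely with the other receptors, and Chil3 is a further STAT6 target in the mouse. Each is the 250 bases before a RefSeq start site in mouse build GRCm38.p6, written 5′ to 3′ on the strand of the gene. The annotated Mgl2 gene begins at chr11:70130125, so most of the Mgl2 window lies inside the gene. Capitals mark matches to TTCNNNNGAA (the STAT6 motif with a spacer of 4 bases), to TTCNNNGAA (the general STAT motif with a spacer of 3) or to GAGGAA (the core of the motif of PU.1, the factor that macrophages depend on), searched on both strands. The first 2 motifs read the same on both strands, and no matches overlapped in these 4 promoters.
Retnla, chr16:48842359-48842608, plus strand: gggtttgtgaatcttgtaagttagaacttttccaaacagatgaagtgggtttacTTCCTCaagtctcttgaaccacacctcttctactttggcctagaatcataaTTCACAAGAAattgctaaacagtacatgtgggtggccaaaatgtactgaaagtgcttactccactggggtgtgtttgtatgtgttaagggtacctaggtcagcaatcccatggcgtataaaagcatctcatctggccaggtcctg
Mgl2, chr11:70130107-70130356, plus strand: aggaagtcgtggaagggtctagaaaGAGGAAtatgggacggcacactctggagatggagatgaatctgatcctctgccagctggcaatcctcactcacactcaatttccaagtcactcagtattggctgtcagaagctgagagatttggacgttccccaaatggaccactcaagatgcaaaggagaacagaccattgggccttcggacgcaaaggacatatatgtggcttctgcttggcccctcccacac
Mrc1, chr2:14229164-14229413, plus strand: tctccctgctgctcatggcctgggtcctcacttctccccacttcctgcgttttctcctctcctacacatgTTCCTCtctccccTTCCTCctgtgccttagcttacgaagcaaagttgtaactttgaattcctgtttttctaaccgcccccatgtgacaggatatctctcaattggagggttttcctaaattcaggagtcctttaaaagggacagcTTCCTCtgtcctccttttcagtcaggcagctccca
Chil3, chr3:106167565-106167814, minus strand: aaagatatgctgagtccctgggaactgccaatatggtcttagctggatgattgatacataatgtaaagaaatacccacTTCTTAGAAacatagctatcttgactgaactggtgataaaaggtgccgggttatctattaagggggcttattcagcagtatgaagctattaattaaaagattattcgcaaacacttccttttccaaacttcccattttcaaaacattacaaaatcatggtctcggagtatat

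Among the 7 members with a promoter sequence here, Retnla held the only TTCNNNNGAA match, beginning 145 bases before the start site, and Chil3 the only TTCNNNGAA match, beginning 172 bases before it. Of 32851 promoters cut to the same length, 5.85% held the first motif, 7.02% the second and 23.3% GAGGAA. Mrc1 held 3 matches to GAGGAA and Mgl2, Stab1 and Retnla 1 each. The match of Mgl2 lies inside the annotated gene. A match describes the letters in this window and is not a measured binding site. Arg1 (chr10:24915207-24927470) and Il10 (chr1:131019845-131024970) are named without a sequence.

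Across the 12 groups the members ranked stabilization and responder tumours of study 3 highest and growth delay tumours lowest. These orders mix both studies, and the sources do not say if the studies were normalized jointly. An offset between the studies therefore cannot be told apart from a difference between outcomes in them. Stabilization had the highest mean of 7 members, study 3 responders were among the 2 highest groups for all 9, and growth delay had the lowest mean of 8. The exception at the bottom was Mgl2, which was lowest in study 2 non-responders (5.19), and the exceptions at the top were Mgl2 (study 3 responders, 6.51) and Retnla (study 3 relapse, 9.76). Group means spanned more than 2 units for 6 members, with the widest span for Arg1 (4.48) and the narrowest for Il10 (1.31). Most neighbours in these orders lay close together: of 99 steps between neighbouring groups, 4 exceeded the spread between tumours within groups. This describes the spread of single tumours and is not a test of group means, which also depends on group size. Those 4 steps were stabilization above study 3 responders for Arg1 (a step of 2.01 against a within-group SD of 1.27) and for Stab1 (1.02 against 0.84), study 3 relapse above study 2 PBS for Mgl2 (0.46 against 0.42) and study 3 responders above stabilization for Retnla (1.01 against 0.98). Groups accounted for 57.3% of the variance of Retnla and 56.7% of that of Mgl2. Each group is 1 outcome in 1 study, so this share includes any difference between the studies. For the other members the share lay between 16.2% for Chil3 and 33.7% for Il10, so most of their variation was between tumours of one group.

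**Figure D1:**
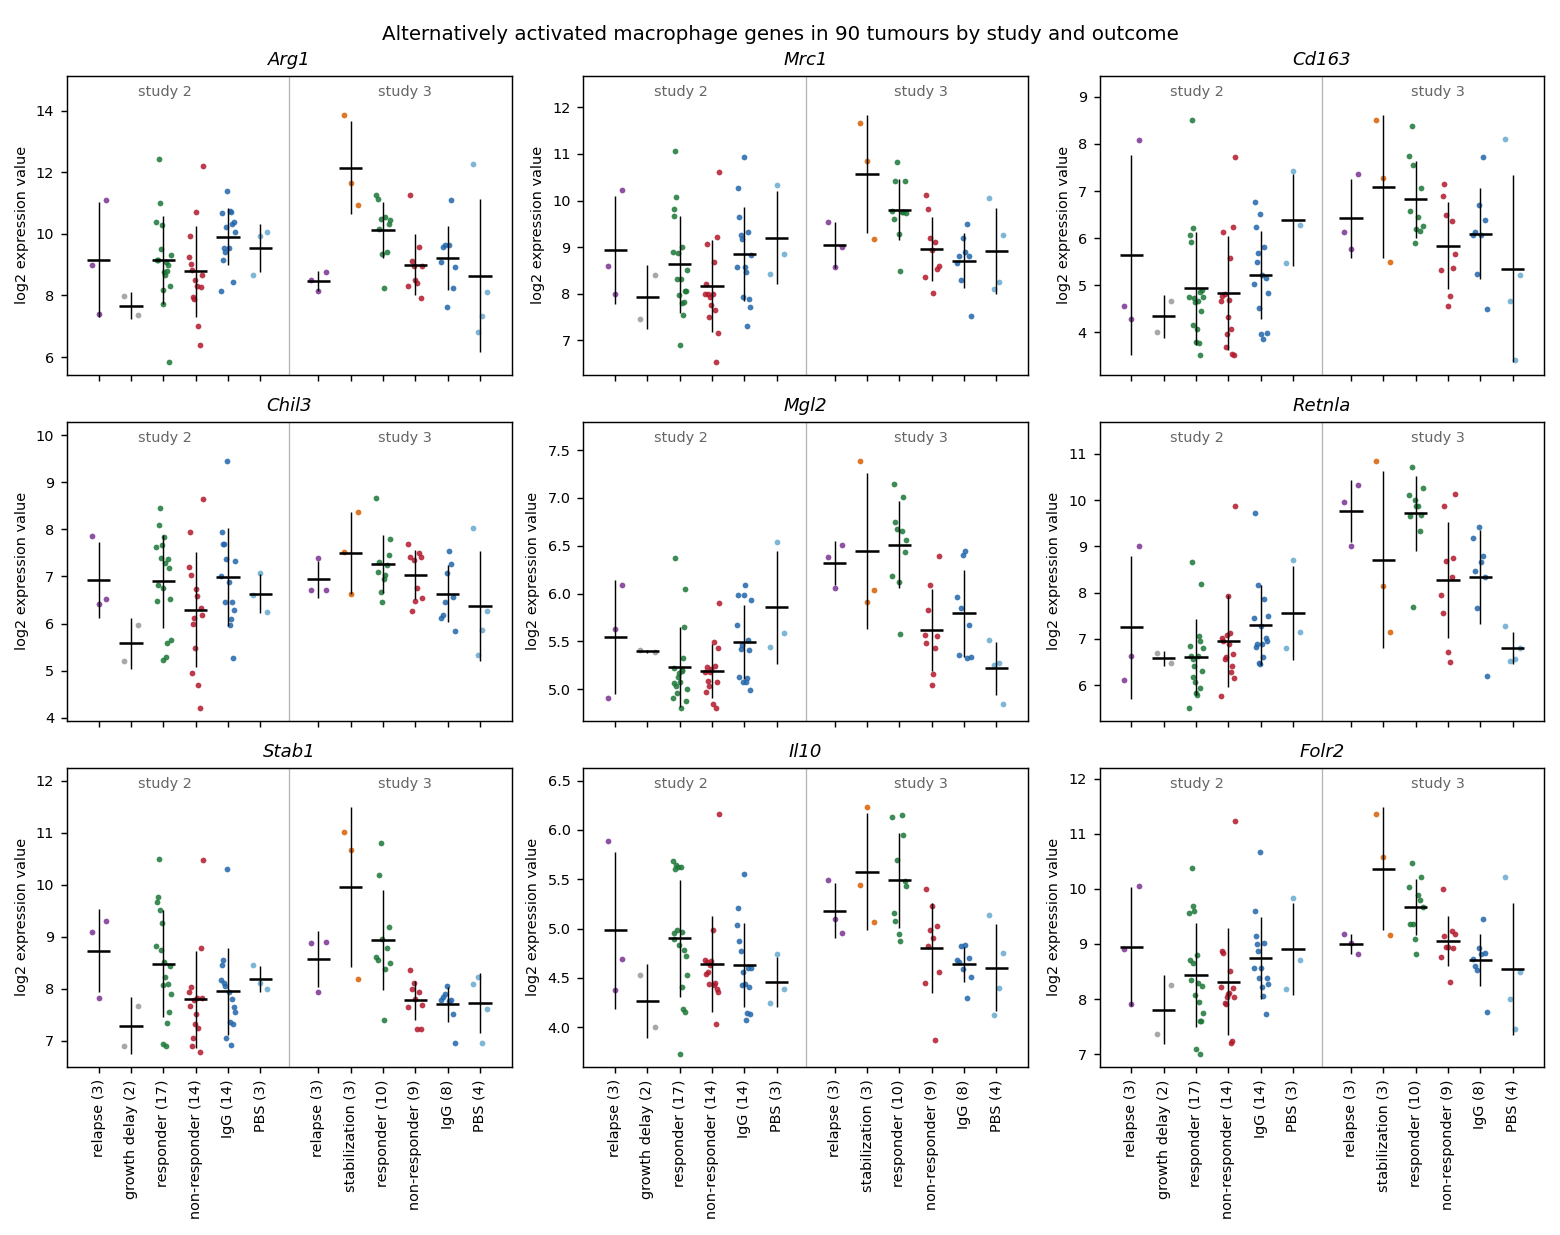
Each panel plots the log2 expression value of 1 member (vertical axis) in every tumour, in 6 outcome groups of study 2 (left) and 6 of study 3 (right), with the number of tumours in brackets. Points are tumours, horizontal bars group means and vertical lines 1 SD. Stabilization has the highest mean of 7 members, the study 3 groups sit above their study 2 counterparts for Retnla except for PBS, and the groups overlap in nearly all panels.

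The first question was whether tumours that regressed under the antibody differed from treated tumours that grew. Averaged over both studies with equal weights, 4 of the 9 members rose in responders against non-responders and none fell. These were Stab1, Mgl2, Il10 and Mrc1. In the same comparison 51.2% of all 18194 genes passed the test (18.9% of all genes rose). The share of members called, 4 of 9, is thus near the share of all genes called. Of all called genes 36.8% rose, and 19.4% under median centring of each array. The median log2 fold change was 0.54 over the members and -0.06 over all genes. In RNA from whole tumour pieces, fewer cells of a type and less RNA per cell cannot be told apart.

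Stab1, a scavenger receptor of macrophages and of some endothelium that clears matrix proteins, had the largest log2 fold change of the called members. Among them it also had the most study 3 responders above every study 3 non-responder. Its lowest, median and highest values were 7.40, 8.70 and 10.81 in study 3 responders, against 7.23, 7.81 and 8.36 in study 3 non-responders. In study 2 they were 6.90, 8.44 and 10.50 in responders, against 6.79, 7.73 and 10.49 in non-responders. Thus 9 of 10 study 3 responders exceeded every study 3 non-responder, whereas the study 2 groups overlapped over almost their full range. The log2 fold change over both studies was 0.92 ± 0.24 (SE), a 1.89-fold higher level, with a limma adjusted p of 0.00211.

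Mgl2, a galactose-binding lectin of mouse alternatively activated macrophages and of skin dendritic cells, rose by 0.47 ± 0.12 (1.38-fold, limma adjusted p = 0.0018). Study 3 responders had 5.58, 6.61 and 7.14 as lowest, median and highest values, against 5.05, 5.56 and 6.39 in non-responders. In study 2 the values were 4.80, 5.12 and 6.37 in responders, against 4.80, 5.18 and 5.90 in non-responders. The average therefore rests on study 3, where 7 of 10 responders lay above every non-responder. In study 2 the log2 fold change was 0.04 ± 0.15.

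Il10, the cytokine that dampens macrophage and T cell activity, rose by 0.47 ± 0.14 (1.39-fold, limma adjusted p = 0.00476). Its values were 4.87, 5.46 and 6.15 in study 3 responders (lowest, median and highest), against 3.88, 4.90 and 5.40 in study 3 non-responders. In study 2 they were 3.73, 4.90 and 5.68 in responders, against 4.03, 4.55 and 6.16 in non-responders. In study 3, 6 of 10 responders exceeded every non-responder, and in study 2 none did.

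Mrc1, the mannose receptor, rose by 0.65 ± 0.26 (1.57-fold, limma adjusted p = 0.0321). Its lowest, median and highest values were 8.50, 9.76 and 10.82 in study 3 responders and 8.02, 8.94 and 10.12 in study 3 non-responders. They were 6.90, 8.32 and 11.06 in study 2 responders and 6.53, 7.99 and 10.61 in study 2 non-responders. Responders had the higher median in both studies, with wide overlap, and the call was lost under quantile normalization within each study (0.61, limma adjusted p = 0.0547).

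The other 5 members did not pass over both studies. Arg1, the enzyme that degrades arginine and so withdraws it from T cells and from nitric oxide synthesis, had a log2 fold change of 0.76 ± 0.37 (limma adjusted p = 0.0742). Retnla, a secreted resistin-like protein, had 0.55 ± 0.28 (adjusted p = 0.0915). Cd163, the receptor for haemoglobin-haptoglobin complexes, had 0.54 ± 0.33. Chil3, a secreted chitinase-like protein that monocytes and neutrophils also make, had 0.41 ± 0.26, and Folr2, the folate receptor of resident macrophages, had 0.37 ± 0.23. Their 95% intervals reached up to 1.48 for Arg1 and 1.19 for Cd163, so differences of these sizes remain possible. Without the 5 tumours low in melanocyte transcripts, Arg1 (0.86, limma adjusted p = 0.0442) and Retnla (0.73, adjusted p = 0.0167) passed as well, which made 6 of 9.

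The studies differed in how many members passed. In study 3 alone 4 members rose in responders against non-responders, beside 36.7% of all genes called in either direction. These were Retnla (1.44 ± 0.44, 2.71-fold, limma adjusted p = 0.0105), Stab1 (1.16 ± 0.38, adjusted p = 0.0159), Mgl2 (0.89 ± 0.19, adjusted p = 0.000993) and Il10 (0.68 ± 0.22, adjusted p = 0.0132). In study 2 alone no member passed in limma, with 2.63% of all genes called, and 1 member, Stab1, had an unadjusted p under 0.05 (0.69 ± 0.30). Retnla pointed down there, with a log2 fold change of -0.34 ± 0.35. With the 5 low-melanocyte tumours left out, Stab1 lost the call in study 3 (0.77, limma adjusted p = 0.107) and passed in study 2 (0.90, adjusted p = 0.0105), while Retnla, Mgl2 and Il10 kept it in study 3. The difference between the studies was tested directly, and no member passed it with or without those tumours: it was 1.78 ± 0.56 for Retnla (limma adjusted p = 0.32) and 0.85 ± 0.24 for Mgl2 (adjusted p = 0.292), with 0 of 18194 genes called and 2418 at an unadjusted p under 0.05. Retnla was at 7.68, 9.87 and 10.72 (lowest, median and highest) in study 3 responders, against 6.50, 8.33 and 10.14 in study 3 non-responders. In study 2 it was at 5.50, 6.56 and 8.67 in responders, against 5.77, 6.79 and 9.88 in non-responders. Its lowest study 3 responder (7.68, against 9.34 in the next one) is a tumour low in melanocyte transcripts and high in skeletal muscle transcripts.

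**Figure D2:**
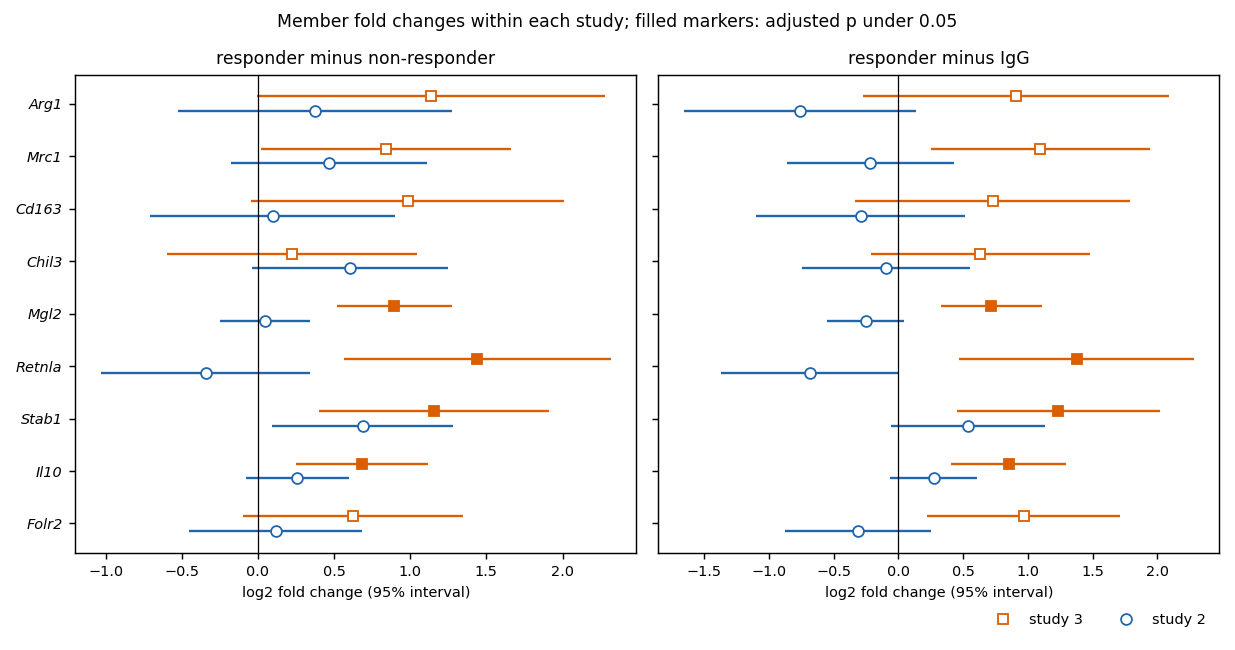
The horizontal axis gives each member's log2 fold change with its 95% interval, for responder minus non-responder (left) and responder minus IgG (right). Squares are study 3 and circles study 2, and filled markers passed at an adjusted p under 0.05. In study 3 the filled markers are Mgl2, Retnla, Stab1 and Il10 in both panels, no study 2 marker is filled, and for Retnla and Mgl2 against IgG the 2 studies lie on opposite sides of 0.

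The next comparison set tumours against antibody controls. The title numbers of both studies fall into distinct runs for controls and for antibody-treated tumours. The runs lie far apart in study 3 and follow directly on each other in study 2. If these runs mark cohorts, treatment and cohort cannot be told apart in either study. IgG and PBS tumours also lie in separate runs in both studies, so the same limit holds between them. Over both studies 2 members rose in responders against IgG, beside 35.4% of all genes called: Stab1 (0.89 ± 0.25, 1.85-fold, limma adjusted p = 0.00558) and Il10 (0.56 ± 0.14, 1.48-fold, adjusted p = 0.00261). In this comparison 15.3% of all genes rose. Both members also passed without the 5 low-melanocyte tumours (Stab1 0.69, limma adjusted p = 0.0167, and Il10 0.57, adjusted p = 0.00155). This comparison shares its responders with the one above, so the values are set side by side and not counted as further support. The member median was 0.33, against -0.04 over all genes.

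Il10 separated study 3 responders from IgG without overlap. All 10 responders lay at 4.87 or higher, against a highest IgG value of 4.84 and a lowest of 4.30, in a comparison where 17.4% of all genes were called. The gap of the groups was thus small, on a dim probe set, and 0.583% of all genes had groups that did not overlap there in one direction or the other. In study 2 it ran from 3.73 to 5.68 in responders, against 4.07 to 5.55 in IgG tumours, and 5 of 17 responders exceeded every IgG tumour. Stab1 ran from 7.40 to 10.81 in study 3 responders, against 6.96 to 8.05 in IgG tumours, and 9 of 10 responders exceeded every IgG tumour. In study 3 alone Stab1 did not pass against IgG without the low-melanocyte tumours (0.85, limma adjusted p = 0.149), while Il10 did (0.88, adjusted p = 0.00861).

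Retnla and Mgl2 differed between the 2 studies when responders were set against IgG. In study 3 Retnla rose by 1.38 ± 0.45 (2.6-fold, limma adjusted p = 0.0285) and Mgl2 by 0.72 ± 0.20 (1.64-fold, adjusted p = 0.00924). In study 2 the log2 fold changes were -0.68 ± 0.35 for Retnla (adjusted p = 0.12) and -0.25 ± 0.15 for Mgl2 (adjusted p = 0.179), neither of which passed, beside 27.3% of all genes called there. The difference between the studies passed for both: 2.06 ± 0.57 for Retnla (limma adjusted p = 0.0432) and 0.97 ± 0.25 for Mgl2 (adjusted p = 0.0313), beside 1.7% of all genes. Under quantile normalization within each study neither difference passed (Retnla 2.07, adjusted p = 0.0696, and Mgl2 0.79, adjusted p = 0.0938), and under median centring Retnla did not (2.01, adjusted p = 0.052). With the 5 low-melanocyte tumours left out both passed (limma adjusted p = 0.03 for Retnla and 0.0499 for Mgl2). In tumours, 8 of 10 study 3 responders had more Retnla than every study 3 IgG tumour, whereas 8 of 17 study 2 responders had less than every study 2 IgG tumour. IgG tumours themselves were at 6.20, 8.57 and 9.43 in study 3 (lowest, median and highest) and at 6.45, 6.98 and 9.72 in study 2. The responder values in study 3 thus sat on a higher IgG level as well. PBS means of Retnla went the other way, at 6.80 in study 3 and 7.55 in study 2. These steps between studies were not tested. Means of several gene lists were likewise higher in responders than in IgG tumours in study 3 and lower in study 2. This is a description with no test. The neutrophil mean was 6.33 in study 3 responders and 5.66 in study 3 IgG tumours, and 5.56 and 5.82 in study 2. In the same order the skeletal muscle mean was 7.63, 5.74, 5.83 and 6.69. The keratinocyte mean was 5.22, 5.09, 5.00 and 5.11, and the arginine metabolism mean 7.92, 7.81, 7.836 and 7.841. The resident macrophage mean was 9.03 in study 3 responders and 8.47 in study 3 IgG tumours, and 7.92 in study 2 responders and 8.32 in study 2 IgG tumours. The lymphatic endothelial mean was 6.66 in study 3 responders and 6.37 in study 3 IgG tumours, and 5.99 in study 2 responders and 6.32 in study 2 IgG tumours. The mast cell and eosinophil mean was 5.23 in study 3 responders and 4.93 in study 3 IgG tumours, and 4.78 in study 2 responders and 4.85 in study 2 IgG tumours. Within groups, Retnla correlated with the resident macrophage mean at r = 0.60 (rho 0.52) and with the lymphatic endothelial mean at 0.61 (rho 0.53). Its r was 0.46 (rho 0.37) with the mast cell and eosinophil mean and 0.22 (rho 0.12) with the neutrophil mean. Its r was 0.33 (rho 0.31) with the keratinocyte mean, 0.21 (rho 0.17) with arginine metabolism and -0.15 (rho -0.06) with skeletal muscle. The adipocyte mean was higher in responders than in IgG tumours in both studies (7.96 in responders and 7.16 in IgG tumours of study 3, 6.36 in responders and 6.12 in IgG tumours of study 2). The part of these cell types in the result was not tested.

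Arg1 did not follow the responders against IgG. Its lowest, median and highest values were 5.83, 9.10 and 12.44 in study 2 responders, against 8.14, 10.15 and 11.41 in study 2 IgG tumours, and 8.26, 10.39 and 11.26 in study 3 responders, against 7.63, 9.33 and 11.10 in study 3 IgG tumours. The responder median was lower in study 2 and higher in study 3, and the average was 0.07 ± 0.37. The difference between studies was 1.67 ± 0.74 (limma adjusted p = 0.165). In study 2, 4 of 17 responders lay above the IgG median, and in study 3, 9 of 10 did.

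In non-responders against IgG no member passed over both studies (1 of 18194 genes, 0.0055%), and none had an unadjusted p under 0.05. The largest values were -0.68 ± 0.38 for Arg1 and -0.32 ± 0.35 for Cd163. In study 2 alone Arg1 (-1.13 ± 0.47), Mrc1 (-0.68 ± 0.34) and Chil3 (-0.70 ± 0.34) had an unadjusted p under 0.05, and none passed after adjustment (limma adjusted p = 0.999 for each). IgG against PBS gave no member that passed, beside 0.0055% of all genes, and none with an unadjusted p under 0.05 over both studies. In study 3 Retnla stood at 7.28, 6.52, 6.57 and 6.81 in the 4 PBS tumours, and 7 of 8 IgG tumours lay above them (1.55 ± 0.59, limma adjusted p = 0.257). The difference between 3′ and 5′ control probe sets, which grows as RNA degrades, was 5.20 in PBS replicate 2, the tumour with 6.52, and at most 0.59 in the other 3 PBS tumours, against a mean of 0.09 ± 0.14 (SD) in study 3 IgG tumours. With that difference as a covariate Retnla had 1.53 ± 0.67 (limma adjusted p = 0.423). Replicate 1 of the study 3 PBS group had the highest value of its group for 8 members, among them Arg1 at 12.29, against 6.82 to 8.11 in the other 3 PBS tumours.

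In relapse tumours 1 member, Mgl2, rose against non-responders over both studies (log2 fold change 0.53 ± 0.19, 1.44-fold, limma adjusted p = 0.0383), beside 24.0% of all genes called (9.96% of all genes rose). Its values were 6.38, 6.06 and 6.51 in the 3 study 3 relapse tumours and 4.91, 5.63 and 6.09 in the 3 study 2 relapse tumours. The study 3 values lay in the upper part of the non-responder range of 5.05 to 6.39, and only 1 exceeded it. In study 2, 1 of 3 exceeded the range of 4.80 to 5.90 in non-responders. The call was lost without any of 4 of the 6 relapse tumours (replicates 2 and 3 of study 2 and replicates 1 and 3 of study 3, with limma adjusted p between 0.0672 and 0.152), and under median centring (0.41, adjusted p = 0.0644). Retnla (0.89 ± 0.44, adjusted p = 0.111) and Stab1 (0.87 ± 0.38, adjusted p = 0.0758) did not pass with all tumours, and both passed with the 5 low-melanocyte tumours left out (limma adjusted p = 0.0324 for Retnla and 0.0165 for Stab1).

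Retnla was at 9.96, 9.01 and 10.32 in the study 3 relapses, inside the responder range, and at 6.11, 6.63 and 9.01 in the study 2 relapses. Arg1 was low in the study 3 relapses. It stood at 8.52, 8.13 and 8.77 in the relapse tumours, against 8.26, 10.39 and 11.26 as the lowest, median and highest of the responders. That difference was -1.67 ± 0.82 within study 3 and did not pass (limma adjusted p = 0.483). Against responders no member and none of the 18194 genes passed over both studies in limma (962 genes and 0 members at an unadjusted p under 0.05). Against IgG no member passed, beside 1.09% of all genes, and Stab1 (0.83 ± 0.38) and Il10 (0.45 ± 0.22) had an unadjusted p under 0.05. In study 3 all 3 relapse tumours had more Il10 (5.50, 5.09 and 4.96) than the highest IgG tumour (4.84), in a comparison where 0.0055% of all genes were called and 9.22% had groups that did not overlap in one direction or the other.

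Stabilized tumours had the highest mean of 7 members, and 2 of the 3 carried few melanocyte transcripts. Against study 3 non-responders 5 members rose, beside 31.3% of all genes called: Arg1 (3.15 ± 0.83, 8.88-fold, limma adjusted p = 0.00456), Stab1 (2.18 ± 0.55, 4.52-fold, adjusted p = 0.00354), Mrc1 (1.60 ± 0.60, adjusted p = 0.0341), Folr2 (1.32 ± 0.53, adjusted p = 0.0465) and Mgl2 (0.83 ± 0.28, adjusted p = 0.0182). Against study 3 IgG 5 members rose, beside 22.2% of all genes called in either direction (1940 genes rose). These were Arg1 (2.92 ± 0.85, limma adjusted p = 0.00985), Stab1 (2.26 ± 0.56, adjusted p = 0.00372), Mrc1 (1.85 ± 0.61, adjusted p = 0.0206), Folr2 (1.66 ± 0.53, adjusted p = 0.0181) and Il10 (0.94 ± 0.32, adjusted p = 0.0259). Arg1 stood at 13.86, 11.65 and 10.95 in replicates 1, 2 and 3, against 7.92, 8.96 and 11.26 as the lowest, median and highest non-responder and 7.63, 9.33 and 11.10 in IgG tumours. Replicates 1 and 2 exceeded every non-responder and every IgG tumour, and replicate 3 exceeded neither maximum.

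Stab1 was at 11.01, 10.67 and 8.20 in the same 3 tumours, and Mrc1 at 11.67, 10.84 and 9.19. Folr2 was at 11.37, 10.58 and 9.16. For all 3 genes replicate 3 was the lowest, and it was the only stabilized tumour with a melanocyte mean (10.00) within the non-responder range of 9.73 to 10.30. Replicates 1 and 2 had melanocyte means of 6.90 and 8.84. Macrophage list means were 12.42, 12.03 and 10.40 in replicates 1, 2 and 3, against 9.51 to 10.42 in non-responders. With those low in melanocyte transcripts left out 1 stabilized tumour remained, and no member passed in either comparison (Arg1 1.95 against non-responders and 1.73 against IgG). Without replicate 1 alone no member passed either. Against non-responders Folr2 also lost the call under quantile normalization (1.29, limma adjusted p = 0.0527), and Mgl2 lost it with only the compared groups fitted (0.83, adjusted p = 0.0705) and with array weights (0.47, adjusted p = 0.0918). Without replicate 2, Mrc1, Stab1 and Folr2 lost the call against non-responders (limma adjusted p between 0.052 and 0.165), and Mrc1, Stab1, Folr2 and Il10 lost it against IgG (adjusted p between 0.0535 and 0.307). Against study 3 responders no member passed, beside 0.11% of all genes, and Arg1 alone had an unadjusted p under 0.05 (2.01 ± 0.82, limma adjusted p = 0.495). Without replicate 3, Stab1 passed in that comparison (1.90, limma adjusted p = 0.0438).

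The 2 growth delay tumours lay at the low end for most members. Arg1 was at 7.98 and 7.35, both below the lowest study 2 IgG tumour (8.14), where 2.58% of all genes had groups that did not overlap in one direction or the other. Its log2 fold change was -2.25 ± 0.94 (limma adjusted p = 0.82). Chil3 was at 5.20 and 5.96, against 5.26 to 9.45 in IgG tumours (-1.41 ± 0.68, adjusted p = 0.891). No gene of the 18194 passed in this comparison, and these 2 members were the only ones with an unadjusted p under 0.05, as 989 genes had. With 2 tumours, changes of the size given could not be separated from the spread between tumours.

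Genes that share the pathway were counted next. Among 18 measured genes of a list of other alternative activation genes, 14 rose in responders against non-responders and none fell, with a median log2 fold change of 0.82. The 4 with the lowest p were Tgm2, a protein cross-linking enzyme (1.51 ± 0.24, limma adjusted p = 2.36e-05), Pdcd1lg2, the second ligand of PD-1 (0.96 ± 0.17), Tgfb1 (0.94 ± 0.19) and Mmp12, the macrophage elastase (1.56 ± 0.36). Among 14 measured genes of interleukin 4 and 13 signalling 9 rose, led by Tyk2 (0.43 ± 0.09), Pparg (0.84 ± 0.18), Stat6 (0.42 ± 0.09) and Jak1 (0.61 ± 0.14). The 1 that fell was Il4 itself (-0.15 ± 0.05, limma adjusted p = 0.011), named after its value was seen. Among 8 genes of interleukin 10 signalling 6 rose, among them Il10ra, its receptor chain (1.21 ± 0.22), and Socs3, the feedback inhibitor (0.76 ± 0.17). The kinases Tyk2 and Jak1 stand in both lists.

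Few genes of arginine metabolism changed. Of 8 measured genes 1 rose, Slc7a2, an arginine importer of macrophages (1.04 ± 0.30, limma adjusted p = 0.004), and the median was -0.03. Odc1 (-0.09 ± 0.04), Ass1 (-0.06 ± 0.04) and Slc7a1 (-0.19 ± 0.17) did not pass. Of 13 tissue resident macrophage genes, which include Mrc1, Cd163 and Folr2, 3 rose: Gas6 (1.08 ± 0.31), Ccl8 (0.92 ± 0.28) and Mrc1, while Pf4 (0.42 ± 0.23) did not pass. Genes of the opposite, classical activation state also rose, 10 of 17 with 2 falling and a median of 0.46. They were led by Socs1 (0.75 ± 0.14), the interferon-induced chemokine gene Cxcl9 (1.53 ± 0.28) and Irf1 (0.74 ± 0.14), and those that fell were Il23a (-0.44 ± 0.08) and Irf5 (-0.17 ± 0.07), the second named after its value was seen. Both activation lists thus held more genes that rose than fell, beside 18.9% of all genes rising.

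Against IgG the counts were 11 of 18 rising and 1 falling for other alternative activation genes, 7 of 14 for interleukin 4 and 13 signalling and 6 of 8 for interleukin 10 signalling. They were 1 of 8 for arginine metabolism, 1 of 13 for resident macrophage genes and 9 of 17, with 1 falling, for classical activation, beside 15.3% of all genes rising. In relapse against non-responders 3 of 18 other alternative activation genes, 4 of 14 of interleukin 4 and 13 signalling (with 1 falling), 5 of 8 of interleukin 10 signalling and no resident macrophage gene rose, beside 9.96% of all genes rising.

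Genes of other cell types changed in the same comparison. In responders against non-responders 15 of 16 macrophage genes, 4 of 5 measured monocyte genes (a list that includes Chil3), 9 of 9 T cell genes, 10 of 10 fibroblast genes, 5 of 7 adipocyte genes and 4 of 9 neutrophil genes rose. None of 10 melanocyte genes rose and 4 fell. The macrophage mean ranged from 10.00 to 12.20 in study 3 responders, against 9.51 to 10.42 in study 3 non-responders, and from 8.59 to 11.98 in study 2 responders, against 8.50 to 12.02 in study 2 non-responders. For study 3 this nearly separated the groups, and for study 2 it did not. Other lists held 3 of 10 dendritic cell genes rising, 3 of 10 mast cell and eosinophil genes, 2 of 6 regulatory T cell genes, 1 of 7 B cell genes and 5 of 8 endothelial genes. Of 5 lymphatic endothelial genes 2 rose and 1 fell, of 7 keratinocyte genes none rose and 2 fell, and none of 9 skeletal muscle genes passed. The difference between 3′ and 5′ control probe sets was 0.31 ± 0.30 in study 3 responders and 0.19 ± 0.16 in study 3 non-responders (SD), and the highest study 3 responder had 0.93. With this difference as a covariate the 4 called members passed in responders against non-responders over both studies, as did the 4 called in study 3 alone against either group. The part of any cell type in the members' results was not tested. The fit that follows describes the members relative to macrophage genes and assigns no part to a cell type.

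The members were therefore also fitted relative to the macrophage list, by adding its mean in each tumour, which contains no member, to the model. In that fit none of the 9 members passed in responders against non-responders (limma), and 0.126% of all genes did, while 3 members had an unadjusted p under 0.05. The 4 members that had risen stood at -0.17 ± 0.11 for Stab1, -0.03 ± 0.11 for Il10, -0.41 ± 0.17 for Mrc1 and 0.25 ± 0.13 for Mgl2. Folr2 had the value farthest from 0 (-0.56 ± 0.15, limma adjusted p = 0.0866). Retnla (0.16 ± 0.31) and Mgl2 were the only members above 0 there. Without the 5 low-melanocyte tumours again no member passed, and Il10 stood just above 0 (0.02 ± 0.11). The same fit for responders against IgG in study 2 gave 3 members that fell relative to macrophage genes, beside 13.6% of all genes called in either direction. The members were Arg1 (-1.33 ± 0.37, limma adjusted p = 0.0151), Mrc1 (-0.77 ± 0.19, adjusted p = 0.0063) and Folr2 (-0.79 ± 0.17, adjusted p = 0.00225). Without the low-melanocyte tumours these 3 passed and so did Chil3 (-0.65 ± 0.22, limma adjusted p = 0.0302). In study 3 no member passed in this fit with or without them, with 0.0055% of all genes called when all tumours were fitted.

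**Figure D3:**
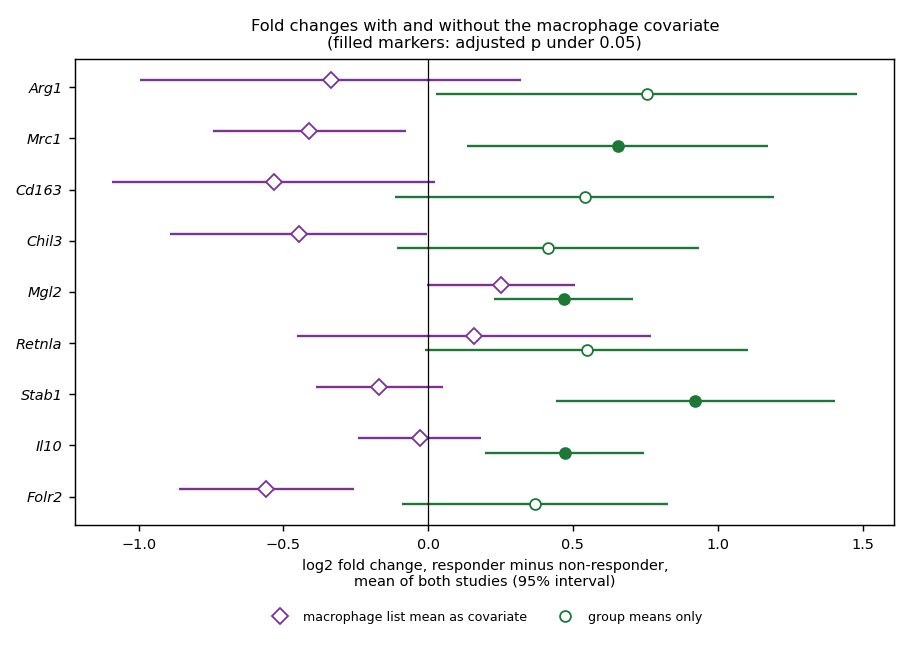
The horizontal axis gives the log2 fold change of each member, responder minus non-responder over both studies, with its 95% interval. Diamonds are from the fit with the macrophage list mean as a covariate and circles from the fit with group means only, and filled markers passed at an adjusted p under 0.05. All circles are above 0 and 4 are filled, whereas no diamond is filled and only those of Mgl2 and Retnla are above 0.

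Within groups, the members formed no single block. Correlations were computed over all 90 tumours after each value was set relative to its group mean, so differences between groups do not enter, and p came from 100000 permutations within groups. The 36 pairs had a median Pearson's r of 0.51, and all were above 0. After Benjamini-Hochberg adjustment over the 36 pairs 32 passed (an adjusted p of 2e-05 is the smallest reached). The median was 0.58 in study 2 and 0.40 in study 3, 0.44 without the 2 tumours farthest from each first gene's median, and 0.49 with the 5 low-melanocyte tumours left out.

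The receptors of scavenger and resident macrophages correlated most closely. Mrc1 and Cd163 had r = 0.88 (Spearman's rho 0.86), Mrc1 and Folr2 0.86 (rho 0.84), and Mrc1 and Stab1 0.84 (rho 0.78), each with a permutation p of 1e-05 for r and for rho, the smallest the permutations can give. Without the 2 tumours farthest from the median of Mrc1 the values were 0.85, 0.82 and 0.80, and with the low-melanocyte tumours left out 0.87, 0.85 and 0.82. Arg1 was also close to Folr2 (r = 0.74, rho 0.57). That r was above the one of the receptors Cd163 and Stab1 (0.71, rho 0.67), while the rho was below it. Retnla and Mgl2 formed a pair of their own at r = 0.63 (rho 0.55, permutation p = 1e-05, 0.57 without the 2 farthest tumours, 0.70 in study 2 and 0.55 in study 3). Retnla was nearly unrelated to Il10 (r = 0.10, rho 0.01, permutation p = 0.379) and so was Mgl2 (r = 0.13, rho 0.08, permutation p = 0.276). Chil3 differed by study: with Stab1 it had r = 0.73 in study 2 and -0.15 in study 3, and with Il10 0.76 in study 2 and 0.13 in study 3. This difference between the studies was not tested.

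The members were next set against the means of the 21 gene lists, without any member in a list, in 189 relations adjusted together. The macrophage mean correlated with Stab1 at r = 0.92 (rho 0.89), Mrc1 at 0.83 (rho 0.77), Folr2 at 0.82 (rho 0.78) and Il10 at 0.74 (rho 0.66), against 0.37 (rho 0.24) for Mgl2 and 0.28 (rho 0.15) for Retnla. The mean of resident macrophage genes correlated with Mrc1 at 0.91 (rho 0.92) and Cd163 at 0.90 (rho 0.87). Arg1 had its highest values with the mean of other alternative activation genes (0.70, rho 0.63) and the neutrophil mean (0.69, rho 0.69). Il10 was about as close to the classical activation mean (0.73, rho 0.72) as to the macrophage mean. The mean of fibroblast genes, a different cell type, was nearly as close to Stab1 (0.90, rho 0.85) as the macrophage mean. It was closer than the macrophage mean to Mrc1 (0.88, rho 0.82). The same held for Cd163 (0.79, rho 0.76, against 0.67, rho 0.59, with the macrophage mean). Folr2 was closer to the macrophage mean than to the fibroblast mean (0.75, rho 0.69). Each of these had a permutation p of 1e-05 except Mgl2 (p = 0.0007 for r and 0.0333 for rho) and Retnla (p = 0.0141 for r and 0.199 for rho) with the macrophage mean. With the low-melanocyte tumours left out Stab1, Mrc1, Folr2 and Il10 stood at 0.90, 0.80, 0.81 and 0.73 with the macrophage mean, Mgl2 at 0.31 and Retnla at 0.20. Without the 2 farthest tumours Retnla and the macrophage mean stood at 0.16, so that relation rested on those tumours.

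**Figure D4:**
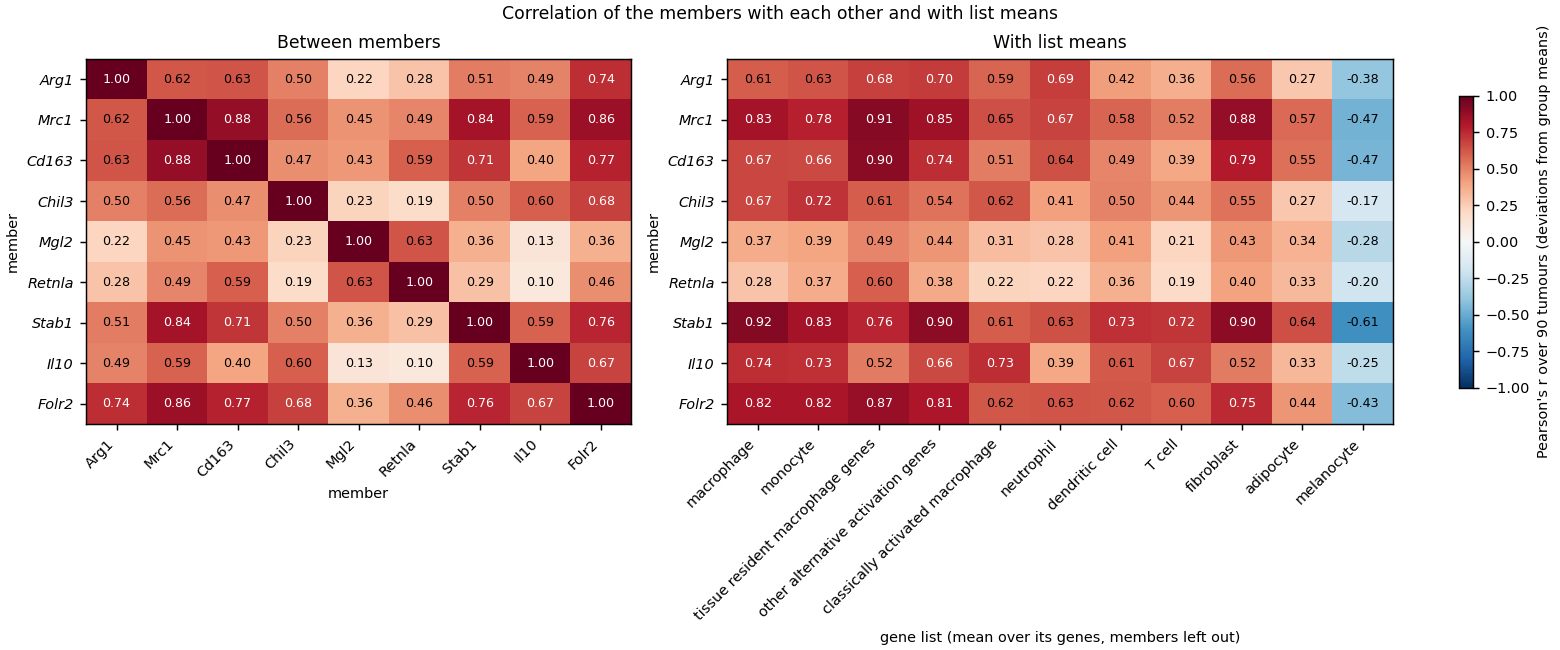
The colour and number in each cell give Pearson's r over 90 tumours, after group means were removed, between members (left) and between members and the means of gene lists without members (right). The block of Mrc1, Cd163, Stab1 and Folr2 lies between 0.71 and 0.88, and Arg1 reaches 0.74 with Folr2. Mgl2 and Retnla reach 0.63 with each other, and their values with the macrophage mean are 0.37 and 0.28.

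The genes most like each member were ranked by Spearman's rho over the 90 tumours with group means removed, and are given as a description. For Mrc1 they were Clec10a (0.93), F13a1 (0.91) and Efemp1 (0.89), and for Cd163 they were F13a1 (0.87), Mrc1 (0.86) and Clec10a (0.83). Folr2 was closest to Cbr2 (0.87), Alox5ap (0.87) and Clec10a (0.86). Clec10a encodes the lectin that is the close relative of Mgl2, and F13a1 encodes coagulation factor XIII, which resident macrophages make. Stab1 was closest to Kcnk6, Cfp and Nckap1l (0.93 each), of which Cfp encodes properdin of the complement system and Nckap1l a cytoskeletal protein of blood cells. Il10 was closest to Ms4a6c, Cd200r4 (0.81 each) and Fpr2 (0.80), the last a receptor for formyl peptides.

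The 3 secreted or enzymatic markers each had other neighbours. Arg1 was closest to Cxcl2 (0.82), a chemokine that attracts neutrophils, Clec4d (0.77), a myeloid lectin, and Ppbp (0.72), a platelet chemokine. Chil3 was closest to Ifitm6 (0.73), Fcgr1 (0.70), the high-affinity receptor for IgG, and Slfn4 (0.68). Retnla was closest to Cd209g (0.69), Cd209f (0.65) and Lyve1 (0.64), of which Lyve1 encodes a hyaluronan receptor of resident macrophages and lymphatic vessels. Mgl2 had the weakest neighbours, Fxyd6 (0.61), Ccn5 (0.58) and Retnla (0.55). No gene appeared among the 3 nearest of both Arg1 and another member.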

How the data were processed

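RNA of each tumour (800 ng, biotin-labelled) was hybridised to 1 array. The deposited table holds log2 values, made by the authors with RMA, per the submitters' processing notes, which also name limma. The sources used here do not say if the studies were normalized jointly. Of 45101 probe sets, 34958 carry 1 gene symbol, 932 several and 9211 none. Each of 18194 genes was read from its single-symbol probe set with the highest mean. Values ranged from 2.19 to 14.84 and array medians from 5.71 to 5.90. The number of arrays limits the precision.

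All 90 arrays were fitted with 12 group means in limma 3.58.1 (R 4.3.3), with 2-sided tests, Benjamini-Hochberg adjustment over all genes and a threshold of 0.05. Comparisons named without a study average both studies with equal weights. The member list and gene lists were chosen with earlier results of these data known. From a list, the text names its 4 genes of lowest p. The fit was also run on simulated data with independent normal noise for each gene. Those data lack the correlations between genes and the outlying tumours seen here. Permutations and figures used Python 3.11.15. Alternatives were weighting the arrays, a variance trend, averaging all probe sets of a gene, leaving out dim genes, quantile normalization within study, median centring, a 3′ to 5′ covariate, leaving out the 5 tumours low in melanocyte transcripts, only the compared groups, each study alone, and each tumour of groups of up to 5 left out. Promoters are from RefSeq, build GRCm38.p6.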

Additional observations from a re-analysis of the deposited data

Results flagged for a closer look

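Arg1 in replicate 2 of the study 3 non-responders was 11.26, far above the other 8 tumours of that group (7.92 to 9.58). Retnla in replicate 4 of the study 3 responders was 7.68, far below the other 9 (9.34 to 10.72), and that tumour had a melanocyte mean of 6.65 and a skeletal muscle mean of 13.6. Of 36 sets of a member and a group that were checked for an outlying tumour, 2 held one, and chance flags about 1 set in 20. Not every group was checked, so a group without a flag is not shown to be free of outlying tumours.

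The change of Mgl2 in responders against IgG was 0.97 larger in study 3 than in study 2 on the log2 scale, and that of Retnla was 2.06 larger, and both differences passed (limma adjusted p = 0.0313 for Mgl2 and 0.0432 for Retnla). Leaving out the tumours low in melanocyte transcripts gave a difference of 0.92 for Mgl2 (adjusted p = 0.0499). Under quantile normalization within each study neither difference passed (limma adjusted p = 0.0938 for Mgl2 and 0.0696 for Retnla). Under median centring that of Retnla did not pass (limma adjusted p = 0.052).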

How the results depend on the processing

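Of 1308 member values recomputed, 1159 kept their direction and side of the threshold, 45 lost the call, 26 gained it and 78 turned sign while uncalled in both. No called value turned sign. Counts below are members first, then all genes, and the cause of each change was not tested unless fewer samples or genes entered. With array weights the members called numbered 7 in responder against non-responder, 5 in relapse against non-responder, 2 in relapse against IgG, 3 in stabilization against responder and 1 relative to macrophage transcripts (also 1 under median centring). Array weights called 3 genes in non-responder against IgG, 7 in relapse against responder, 10515 in relapse against non-responder, 8531 in relapse against IgG, 5330, 9958 and 8384 in stabilization against responder, non-responder and IgG, 10 in growth delay against IgG and 2981 in IgG against PBS. Without dim genes, which drops Cd163, Mgl2 and Il10, 2 members and 5748 genes were called in responder against non-responder, 1 member in responder against IgG, and 0 members and 2398 genes in relapse against non-responder. That filter left 0 genes in non-responder against IgG, 102 in relapse against IgG, 2 in stabilization against responder and 0 in IgG against PBS.

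Median centring gave 0 members and 7834 genes in relapse against non-responder, 3945 in relapse against IgG and 12 in stabilization against responder. It moved the median of all genes by -0.12 and -0.10 in the relapse comparisons and the rising share of called genes to 22.1%, against 43.3%, in responder against IgG. Quantile normalization gave 1884 in relapse against non-responder, 37 in relapse against IgG and 11 in growth delay against IgG. The 3′ to 5′ covariate gave 512 in relapse against IgG and 12 in stabilization against responder. The mean of all probe sets gave 2 in IgG against PBS. With the compared groups alone 3880 genes were called in relapse against IgG, 0 in stabilization against responder, 2431 in stabilization against IgG and 6 in IgG against PBS. Without the tumours low in melanocyte transcripts 3899 genes were called in responder against IgG, 3 members and 7514 genes in relapse against non-responder, 2573 genes in relapse against IgG, 0 in stabilization against responder, 0 members and 1 gene in stabilization against non-responder and against IgG, and 2 genes in IgG against PBS. Repeats without these tumours of results within a study, of study differences and of those relative to macrophage transcripts, and repeats with the 3′ to 5′ covariate within a study, were chosen after seeing the data.

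In study 2 alone 0 members and 478 genes were called in responder against non-responder, 0 members in responder against IgG, 0 genes in non-responder against IgG, 0 members and 0 genes in relapse against non-responder, and 8 genes in relapse against IgG. In study 3 alone 4 members and 3162 genes were called in responder against IgG, 126 genes in non-responder against IgG, 0 members and 2379 genes in relapse against non-responder, 1 gene in relapse against IgG and 88 in IgG against PBS. Leaving out 1 tumour in turn gave 0 to 1 members and 700 to 3478 genes in relapse against non-responder, and 0 to 21 genes in relapse against IgG. It gave 0 to 1 members and 1 to 1356 genes in stabilization against responder, 0 to 7 members and 1 to 7515 genes against non-responder, and 0 to 6 members and 1 to 6236 genes against IgG. It gave 0 to 56 genes in growth delay against IgG and 1 to 51 in IgG against PBS. No paired analysis was possible because the labels give no number that tumours of different groups share. Groups of 2 to 4 tumours and the low signal of Cd163, Mgl2 and Il10 limit what could be detected.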
